A study of Mus musculus with 30 samples.

Results

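The choroid plexus epithelium genes are 32 transcripts by which the secretory epithelium of the brain ventricles is usually recognised, led by Ttr, Kl and Folr1. They were taken from the FPKM table by gene symbol, from a list drawn up with earlier results of these data known, and all 32 were present among its 24883 rows, each in a single row. The table held 30 libraries, 1 per mouse, from the dissected dorsal hippocampus of young adult male C57BL/6J mice of wild-type genotype, with 6 mice in each of 5 conditions. VEH-HC mice stayed in the homecage and were only handled, VEH-T10 mice received 10 min of object location memory (OLM) training, which is a threshold session, and VEH-T3 mice received 3 min, a sub-threshold session. All of these were given the in vivo-jetPEI reagent alone, without DNA. Y397F-T10 mice received a plasmid for the phospho-null Y397F form of the chromatin remodelling subunit CREST and trained for 10 min, and Y397D-T3 mice received the phospho-mimetic Y397D form and trained for 3 min. The plasmid encoded HA-tagged mouse CREST under the miniCaMK2 promoter, which is meant for excitatory neurons, and was delivered to both dorsal hippocampi 3 days before training. There was no condition with wild-type CREST plasmid, so plasmid and point mutation cannot be told apart. Trained mice were sampled 1 h after the session ended. By the study's OLM procedure, mice were habituated to the chamber over several days before training, whereas homecage mice were only handled. Habituation and training therefore cannot be told apart in the comparisons with VEH-HC. All mice were single-housed.

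The choroid plexus hangs in the ventricles beside the hippocampus and is not part of it. Its epithelium takes water and ions from fenestrated capillaries and releases cerebrospinal fluid, and it secretes carrier proteins and growth factors into that fluid. Neurons and glia of the hippocampus express little or none of Ttr, Folr1, Kcnj13 or Otx2, whereas Kl, Enpp2, Igfbp2, Mdfic and Cab39l are also known from other brain cells. In a whole-tissue library, the RNA of genes confined to the plexus therefore reads out how much plexus was collected together with how active each epithelial cell was. Fewer cells and less RNA per cell cannot be told apart. For Kl, Enpp2, Igfbp2, Mdfic and Cab39l the RNA can also come from those other cells.

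Otx2, a homeodomain factor that the plexus epithelium needs, binds the core motif TAATCC. RefSeq promoter windows on GRCm38.p6, each from 250 bases before to 50 after a transcription start, were at hand for 26 of the 32 genes and not for Ttr, Folr1, Clic6, Sostdc1, Enpp2 or Lbp. The motif on either strand was found in 3 of these 26 windows, or 11.5%, against 8.14% of the 27025 gene symbols with a window. The windows of Abca4 (chr3:122044210-122044509, plus strand), Igf2 (chr7:142658755-142659054, minus strand) and Otx2 itself (chr14:48665060-48665359, minus strand) are shown because they are the ones that hold it, with the match in capitals as GGATTA, its reverse complement.
Abca4: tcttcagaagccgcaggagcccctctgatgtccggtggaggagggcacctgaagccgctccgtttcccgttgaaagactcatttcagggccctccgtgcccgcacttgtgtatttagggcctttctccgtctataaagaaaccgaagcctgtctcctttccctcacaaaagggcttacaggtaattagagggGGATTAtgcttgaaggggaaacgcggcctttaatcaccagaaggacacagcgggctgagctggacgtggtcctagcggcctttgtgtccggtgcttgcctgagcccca
Igf2: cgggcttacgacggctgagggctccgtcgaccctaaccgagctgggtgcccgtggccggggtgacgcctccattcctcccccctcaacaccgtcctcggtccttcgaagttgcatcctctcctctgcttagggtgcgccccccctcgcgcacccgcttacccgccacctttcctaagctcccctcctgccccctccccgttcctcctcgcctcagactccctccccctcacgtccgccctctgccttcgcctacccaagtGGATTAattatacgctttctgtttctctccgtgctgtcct
Otx2: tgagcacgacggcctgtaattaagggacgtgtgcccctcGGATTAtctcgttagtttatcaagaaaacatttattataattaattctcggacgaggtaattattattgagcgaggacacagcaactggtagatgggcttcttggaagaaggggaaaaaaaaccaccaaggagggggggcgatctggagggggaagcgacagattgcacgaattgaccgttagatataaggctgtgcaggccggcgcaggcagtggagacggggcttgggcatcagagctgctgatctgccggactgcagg
The match starts 58 bases before the start of Abca4, 211 bases before that of Otx2 and 10 bases after that of Igf2. A match is only a string of letters here, and a window without it says nothing about the factor.

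Relative depth, read from the steps between low FPKM values, ran from 0.811 to 1.24 times the median library, and the median FPKM of the 13184 tested rows ran from 9.08 to 10.3. Absolute depth was not given. All 32 genes had a mean of at least 1 FPKM and so entered the tests.

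Ttr, which encodes transthyretin, the carrier of thyroxine and retinol that the plexus secretes, was the most variable of the genes. In VEH-HC, Ttr measured 1616, 2011, 4570.3, 890.3, 5426 and 4069.7 FPKM in mice 1 to 6. In VEH-T10 it measured 4330.2, 5.89, 139, 3674, 46.5 and 26.1 FPKM. All 6 homecage libraries were high, whereas the VEH-T10 libraries were either as high as these or at least 6 times below the lowest of them. In Y397F-T10, Ttr measured 23.6, 10072, 30.3, 6105, 43.6 and 55.5 FPKM. In VEH-T3 it measured 23.9, 1671, 2110.2, 12451, 2696 and 51.1 FPKM. Libraries of one and the same trained condition thus sat at opposite ends of the range. In Y397D-T3, Ttr measured 344, 24.4, 7.63, 2763, 65.8 and 161 FPKM, so that mouse 4 alone reached the homecage range. Ttr was the highest row of the whole table in 9 libraries and ranked as low as 8439 in VEH-T10 mouse 2. It took 2.87% of the summed FPKM in VEH-T3 mouse 4 and 0.00145% in VEH-T10 mouse 2.

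**Figure D1:**
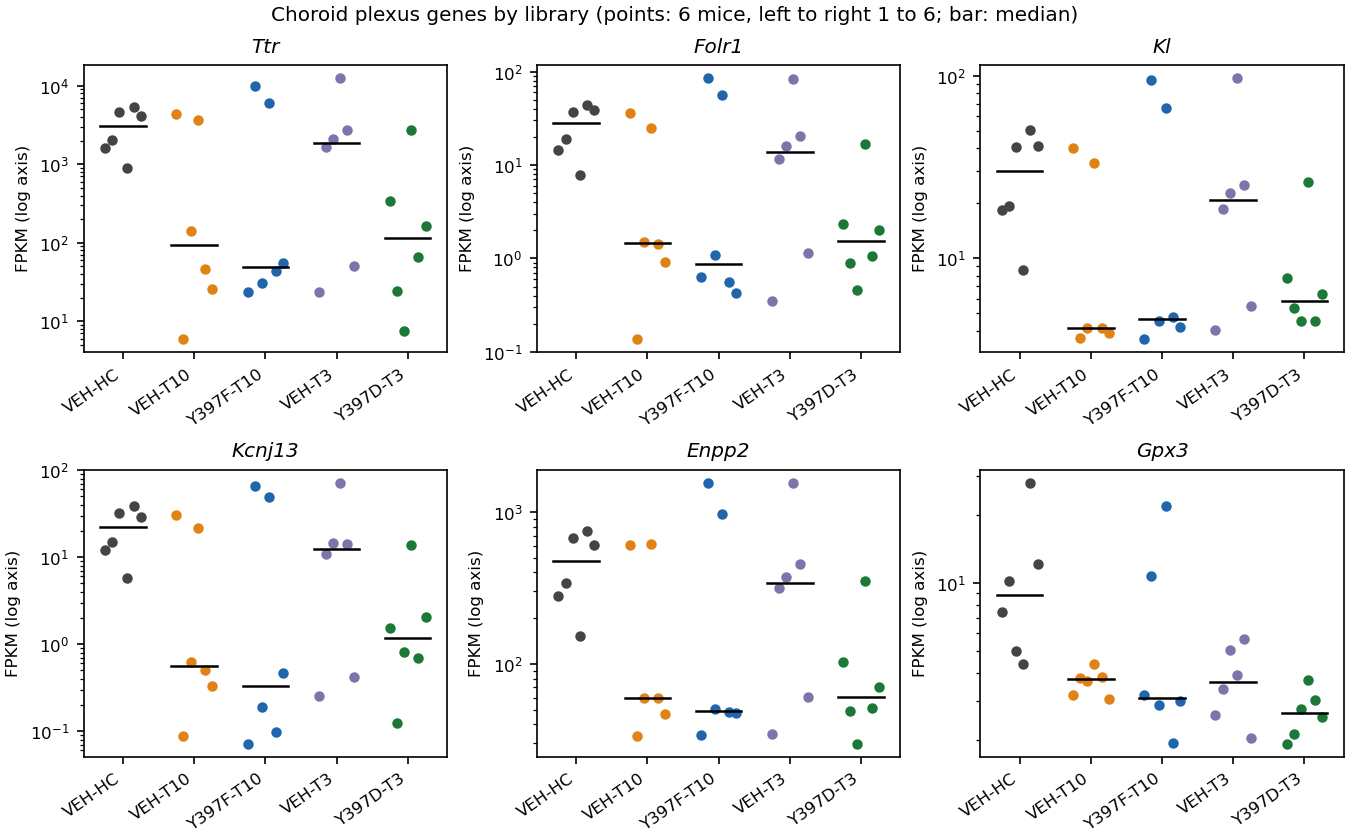
FPKM on a log axis for 6 choroid plexus genes in each library, by condition, with the 6 mice of a condition from left to right and the median as a bar. The 6 VEH-HC libraries lie together, between 890.3 and 5426 FPKM for Ttr, whereas the trained conditions split into high and low libraries; Gpx3 has its own order.

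Folr1, the folate receptor by which the plexus carries folate into the fluid (chromosome 7, 101858331 to 101870788, minus strand, GRCm38), had the same split with a floor near 0. Its lowest, median and highest values were 7.77, 27.8 and 43.5 FPKM in VEH-HC, whereas VEH-T10 had 0.136, 1.47 and 36 FPKM. Y397F-T10 had 0.421, 0.867 and 84.8 FPKM. VEH-T3 had 0.348, 13.8 and 84 FPKM, and Y397D-T3 had 0.464, 1.52 and 16.9 FPKM. The trained conditions overlapped VEH-HC through their upper libraries only. Kl, the co-receptor for fibroblast growth factor 23 whose ectodomain is shed (chromosome 5, 150952607 to 150993817, plus strand), had a higher floor. Its lowest, median and highest values were 8.65, 30.1 and 50.5 FPKM in VEH-HC, whereas VEH-T10 had 3.65, 4.13 and 40.3 FPKM. Y397F-T10 had 3.59, 4.66 and 94.9 FPKM. VEH-T3 had 4.02, 20.8 and 96.8 FPKM, and Y397D-T3 had 4.52, 5.85 and 26.1 FPKM. Over all 30 libraries Kl spanned 27-fold and Folr1 623-fold, against 2112-fold for Ttr.

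Libraries ordered by the mean log2(FPKM + 1) of Ttr, Kl and Folr1 had their widest gap, 0.97, between Y397D-T3 mouse 1 and VEH-HC mouse 4, and the next widest was 0.81. That left 15 libraries above the gap and 15 below it. Above were all 6 VEH-HC libraries, 4 from VEH-T3, 2 from VEH-T10, 2 from Y397F-T10 and 1 from Y397D-T3. Of the other 31 genes, 20 placed the same 15 libraries on top as Ttr did. Another 10 exchanged 1 library, in each case VEH-HC mouse 4, the lowest homecage library for Ttr. Gpx3 exchanged 2. The 3 highest libraries, VEH-T3 mouse 4 and Y397F-T10 mice 2 and 4, were the same as for Ttr in 27 of the 31. No background share was computed for these counts, for those against the lowest VEH-HC library or for the ratios to Ttr.

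**Figure D2:**
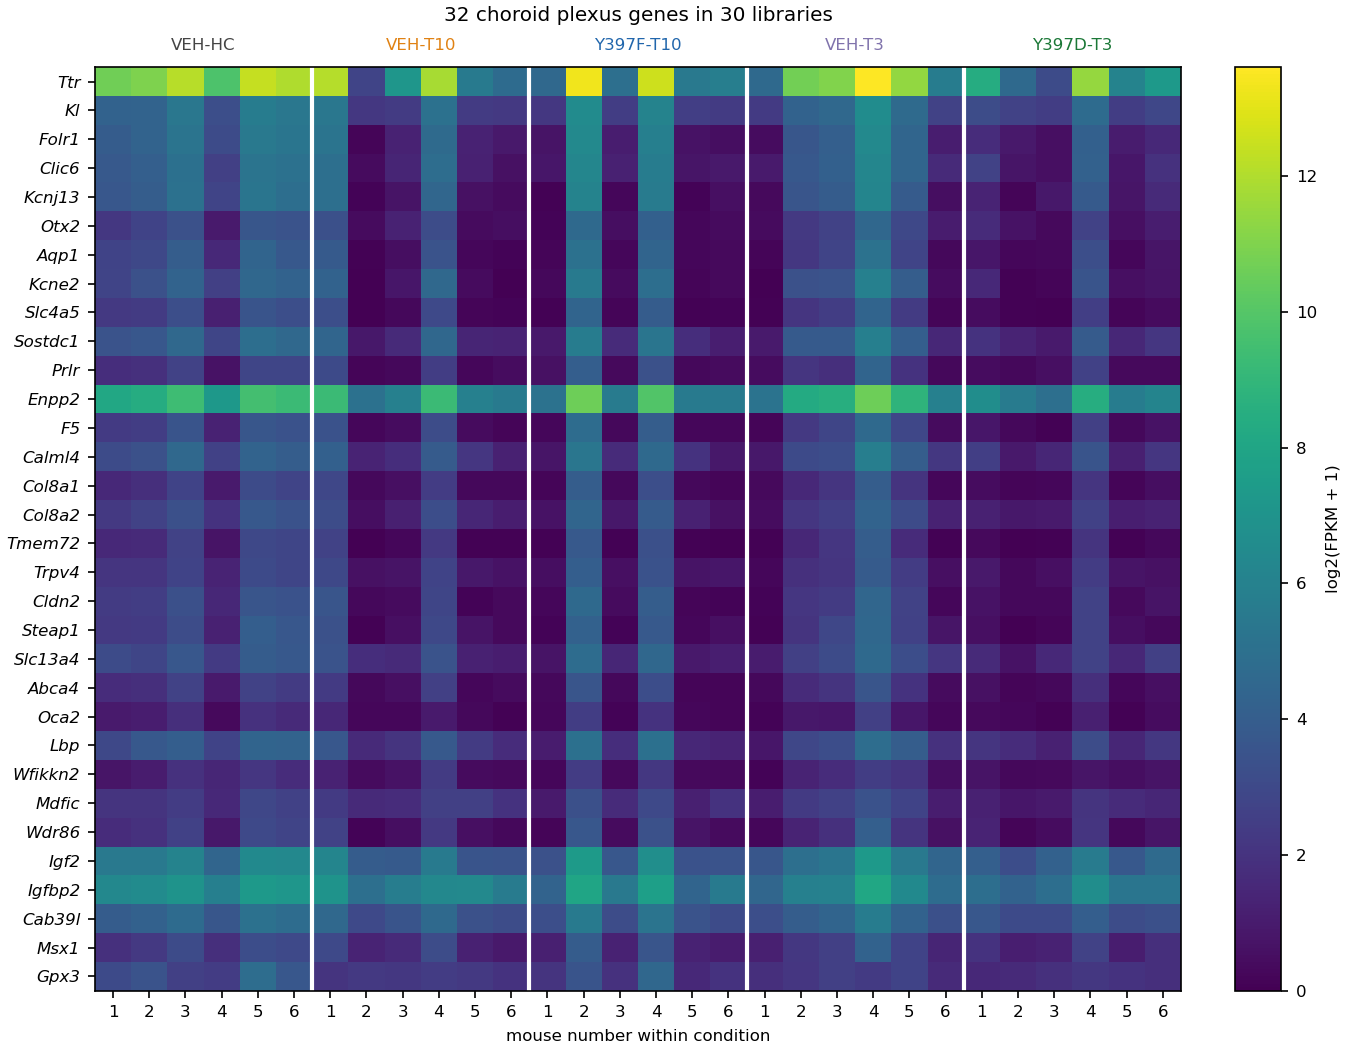
log2(FPKM + 1), as colour, of the 32 genes (rows) in the 30 libraries (columns, by condition and mouse number). Whole columns are bright or dark together, with VEH-T3 mouse 4 and Y397F-T10 mice 2 and 4 brightest, and the row of Gpx3 departs from this.

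In number, 9 of the 24 trained libraries were at or above the lowest VEH-HC library for Ttr, and the same count held for 20 of the 32 genes in all, made up for each of them of 4 VEH-T3 libraries, 2 VEH-T10 libraries, 2 Y397F-T10 libraries and 1 Y397D-T3 library. Mdfic, which encodes a protein with a MyoD family inhibitor domain, had 16 such libraries and Gpx3 had 4.

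Within the upper 15 libraries the ratio of most genes to Ttr spanned a narrower range than Ttr itself. Ttr itself spanned 14-fold there, from 890.3 to 12451 FPKM, whereas Folr1 stayed between 6.12 and 9.50 FPKM per 1000 FPKM of Ttr. Kl stayed between 7.77 and 11.4, and Enpp2 between 124 and 189. The ratio to Ttr spanned less than 3-fold for 26 of the 31 other genes, with Igfbp2 at 2.95-fold the widest of these. The exceptions were Mdfic at 3.15-fold, Prlr at 3.10-fold, Cab39l at 3.04-fold, Wfikkn2 at 7.72-fold and Gpx3 at 16.5-fold.

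A pooled correlation would mainly restate the gap, so relations to Ttr on log2(FPKM + 1) were computed separately for the 15 libraries on each side, 80 relations in all with 100000 permutations each. Above the gap, Pearson's r with Ttr had a median of 0.977 over the 31 genes and ranged from 0.307 (Gpx3) to 0.993 (Kl), and Spearman's rho had a median of 0.961. Both adjusted p passed 0.05 for 30 of the 31. The relations were not computed for all tested rows, so no background share stands beside this count or that below the gap. For Kl, r was 0.993 and rho 0.989, each with a two-sided permutation p of 1e-05, the smallest these permutations can give, and adjusted p of 2.5e-05 and 2.96e-05. Leaving out the 2 libraries farthest from the median of Ttr gave r = 0.989. Gpx3 did not pass (r = 0.307, permutation p = 0.262, adjusted p = 0.322, and rho = 0.232, permutation p = 0.401, adjusted p = 0.441), and r was 0.475 without the 2 farthest libraries.

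Below the gap, where many values approached the floor, the median r was 0.630 and the median rho 0.65, and 19 of the 31 passed with both. Folr1 still followed Ttr (r = 0.842, permutation p = 0.00012, adjusted p = 0.000253, and rho = 0.775, permutation p = 0.00084, adjusted p = 0.00187, with r = 0.699 without the 2 farthest libraries). Kl gave r = 0.675 (permutation p = 0.00597, adjusted p = 0.0106) and rho = 0.614 (permutation p = 0.0172, adjusted p = 0.0260), and its r fell to 0.370 without those 2 libraries, so that its relation rested on them. The median FPKM of a library also moved with Ttr below the gap (r = 0.596, permutation p = 0.0190, adjusted p = 0.0287, rho = 0.832, permutation p = 0.00026, adjusted p = 0.00065, and r = 0.600 without the 2 farthest). Its part in the relations was not tested. Relative depth had r = 0.166 above the gap (permutation p = 0.554, adjusted p = 0.607) and -0.09 below it (permutation p = 0.757, adjusted p = 0.797), with rho of 0.00714 (permutation p = 0.984, adjusted p = 0.984) and -0.114 (permutation p = 0.687, adjusted p = 0.722).

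**Figure D3:**
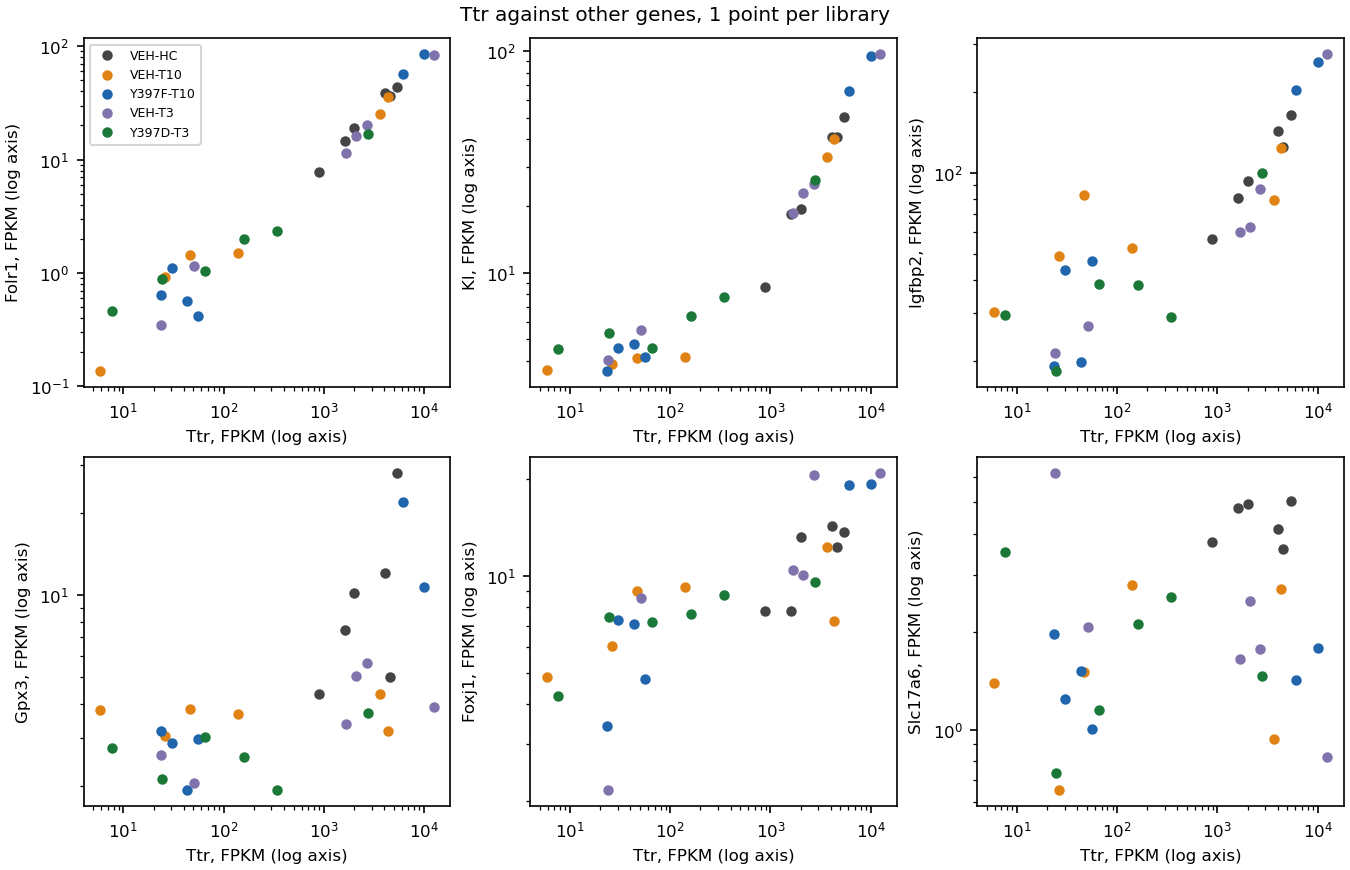
FPKM of 6 genes against Ttr, both on log axes, with 1 point per library coloured by condition. Folr1, Kl and Igfbp2 rise with Ttr in the 15 libraries above 890 FPKM of Ttr, Kl and Igfbp2 level off or scatter below it, Foxj1 rises with it more loosely, and Gpx3 and Slc17a6 scatter widely.

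The design asks whether training with its habituation, alone or with a CREST form, differed from the homecage. The same 6 VEH-HC libraries serve as the reference in 4 comparisons, so these share their controls. On the mean of log2(FPKM + 1), 32 of 32 genes were lower than VEH-HC in each of the 4, with median log2 fold changes of -1.20 (VEH-T10), -0.54 (VEH-T3), -1.03 (Y397F-T10) and -1.58 (Y397D-T3), where the medians of all tested rows were between -0.04 and -0.03. The scale mattered, since the mean FPKM itself was above that of VEH-HC for 8 of the 32 in VEH-T3 (Ttr, Kcne2, Prlr, Calml4, Wfikkn2, Mdfic, Wdr86 and Msx1), for 4 in Y397F-T10 (Otx2, Prlr, F5 and Trpv4) and for 0 in VEH-T10 and Y397D-T3. A log2 fold change below 0 was found for 59.7%, 61%, 63.7% and 59.6% of tested rows in these comparisons. With limma over all 30 libraries, however, 0 of 32 passed an adjusted p of 0.05 for VEH-T10, where 0.819% of tested rows were called (0.501% lower, 0.319% higher). None passed for VEH-T3 (5.17% of tested rows, 2.94% lower and 2.23% higher) or for Y397F-T10 (1.13%, 0.66% lower and 0.47% higher). In Y397D-T3, 1 of 32 was called, against 7.07% of tested rows. It was lower, as were 3.16% of tested rows, and 0 of 32 were higher, against 3.91%.

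At an unadjusted p under 0.05, 4 of the 32 were lower in VEH-T10 (Ttr, Folr1, Kcnj13 and Gpx3) where 10.3% of tested rows were, 1 in VEH-T3 (Gpx3) against 13.8%, 0 in Y397F-T10 against 11.4%, and 28 in Y397D-T3 against 14.6%. None was higher in any of the 4, where 4.57%, 7.79%, 5.5% and 10.3% of tested rows were. An exact two-sided permutation test of each gene in the 12 libraries compared had an unadjusted p under 0.05, with the lower mean outside the homecage, for 10, 1, 0 and 32 of the 32 genes, against 13.1%, 12.3%, 11.8% and 18.6% of tested rows. The 32 genes moved together across libraries, so these counts are not those of 32 separate tests.

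For Ttr the log2 fold change from VEH-HC was -4.49 ± 1.78 (SE) in Y397D-T3, with a limma adjusted p of 0.117 and an exact permutation p of 0.00866, and 5 of 6 libraries were below all of VEH-HC. It was -3.97 ± 1.78 in VEH-T10 (adjusted p = 0.293, exact permutation p = 0.0433), with 4 of 6 libraries below. Here, as with the other conditions, the log2 scale weighs the low libraries heavily. In VEH-T3 the mean FPKM of Ttr was 3167 ± 4677 (SD, n = 6) and in VEH-HC 3097 ± 1832, while on the log2 scale the difference was -1.82 ± 1.78 (adjusted p = 0.622). In Y397F-T10 it was -3.54 ± 1.78 (adjusted p = 0.313). Folr1 was at 26.7 ± 14.7 FPKM in VEH-HC and 3.94 ± 6.39 in Y397D-T3, a log2 fold change of -2.91 ± 1.09 (adjusted p = 0.098, exact permutation p = 0.00649). Kl was at 29.8 ± 16.5 and 9.11 ± 8.41 FPKM, a log2 fold change of -1.67 ± 0.79 (adjusted p = 0.190, exact permutation p = 0.0173).

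These calls depended on which libraries set the spread. The SD of Ttr on log2(FPKM + 1) was 1.02 in VEH-HC and 2.94 in Y397D-T3, against 3.53 (VEH-T3), 3.83 (VEH-T10) and 4.01 (Y397F-T10), and a fit over all 30 libraries pools them. When limma was given only the 12 libraries of Y397D-T3 and VEH-HC, 30 of the 32 genes were called lower, where 8.8% of tested rows were. The adjusted p was then 0.0187 for Ttr, 0.0279 for Kl, 0.00783 for Folr1 and 0.0123 for Gpx3, and Prlr (0.0618) and Msx1 (0.0853) did not pass. The same restriction called 0 of the 32 in each of the other 6 comparisons, where 1.74% (VEH-T10 against VEH-HC), 0.281% (Y397F-T10 against VEH-HC) and otherwise 0% of tested rows were called lower. Pooled over conditions, the residual SD of Ttr was 3.25, the second largest of the 13184 tested rows, and 23 of the 32 genes were among the 100 most variable. The median residual SD was 1.30 for the 32 genes and 0.137 for all tested rows.

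**Figure D4:**
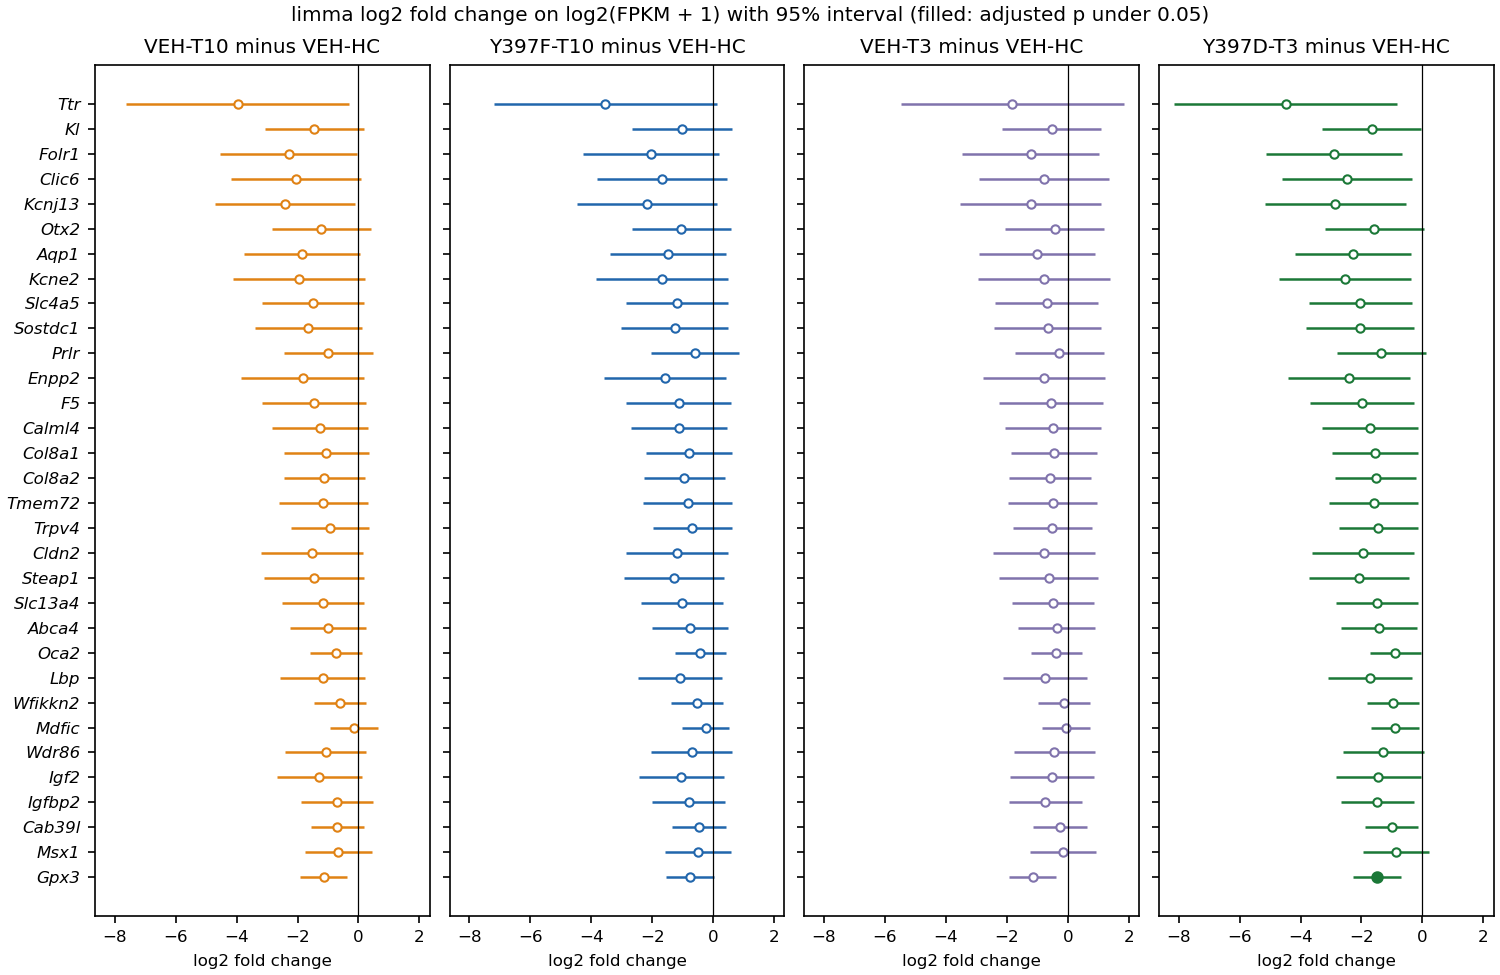
limma log2 fold change on log2(FPKM + 1), with its 95% interval, of the 32 genes in each trained condition relative to VEH-HC. Every point lies left of 0, most intervals outside Y397D-T3 cross it, and the filled point is the only call at an adjusted p under 0.05 (Gpx3 in Y397D-T3).

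Among the 11 secreted or extracellular genes, Gpx3 was the only call. All 11 were lower at an unadjusted p under 0.05 in Y397D-T3, against 14.6% of tested rows. The counts by role here and below are parts of the 28 of 32 given above. These genes moved together, so the counts are not separate results. Gpx3 encodes the secreted glutathione peroxidase of plasma and fluid (chromosome 11, 54902453 to 54910377, plus strand). It measured 7.46, 10.2, 5.00, 4.36, 27.9 and 12.1 FPKM in VEH-HC mice 1 to 6, and 1.94, 2.13, 2.75, 3.69, 3.03 and 2.55 FPKM in Y397D-T3. The conditions did not overlap, which 3.02% of tested rows also showed, and the means were 11.2 ± 8.73 and 2.68 ± 0.636 FPKM. The log2 fold change was -1.49 ± 0.38 (adjusted p = 0.0182, exact permutation p = 0.00216, the smallest that 6 against 6 allows). VEH-T10 values ran from 3.05 to 4.353 FPKM, just under the lowest homecage value of 4.359, a separation that 1.64% of tested rows also showed, with a log2 fold change of -1.15 ± 0.38 (adjusted p = 0.134, exact permutation p = 0.00216). In VEH-T3 they ran from 2.06 to 5.65 FPKM (log2 fold change -1.15, adjusted p = 0.0716).

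Outside the homecage, Gpx3 was highest in Y397F-T10 mice 2 and 4, at 10.7 and 21.9 FPKM, the mice of that condition in which Ttr was high. In VEH-T3 mouse 4, with the highest Ttr of all, it was only 3.89 FPKM. The call in Y397D-T3 was lost without VEH-HC mouse 5, where the log2 fold change was -1.19 ± 0.36 with an adjusted p of 0.0549. With the mean of Ttr, Kl and Folr1 as a covariate the difference was -0.91 ± 0.34 (adjusted p = 0.126).

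Enpp2, which encodes autotaxin, the enzyme that makes lysophosphatidic acid, was the next most abundant after Ttr. Its lowest, median and highest values were 153, 476 and 750.2 FPKM in VEH-HC and 29.9, 60.9 and 349.6 FPKM in Y397D-T3, and its highest values were 1563 and 1543 FPKM in Y397F-T10 mouse 2 and VEH-T3 mouse 4. Its floor was far from 0 and still tracked Ttr below the gap (r = 0.909, permutation p = 1e-05, adjusted p = 2.5e-05, rho = 0.893, permutation p = 2e-05, adjusted p = 5.52e-05, and r = 0.848 without the 2 farthest libraries). Igf2, the fetal-type insulin-like growth factor that adult plexus and meninges still make, ran from 8.21 to 25 FPKM below the gap and from 21 to 167 FPKM above it. Igfbp2, which binds it, ran from 18.3 to 82.4 and from 56.7 to 275 FPKM, so both overlapped across the gap. Sostdc1, a secreted antagonist of BMP and Wnt signalling, had 0.855 to 3.45 FPKM below and 6.27 to 57 FPKM above. F5 (coagulation factor V), Lbp (lipopolysaccharide-binding protein) and the collagen VIII chains Col8a1 and Col8a2 also did not overlap, with maxima of 26.9, 31.9, 15.3 and 20.4 FPKM. The gap was drawn from Ttr, Kl and Folr1, with which most of the 32 genes moved, so a lack of overlap across it is no separate result. Its share over all tested rows was not computed. Wfikkn2, an inhibitor of growth and differentiation factors, was lower in every Y397D-T3 library (0.221 to 0.720 FPKM) than in VEH-HC (0.727 to 3.5 FPKM), with a log2 fold change of -0.96 ± 0.42 (adjusted p = 0.150, exact permutation p = 0.00216). The margin was narrow, and 3.02% of tested rows also showed such a separation. Wfikkn2 was picked for fuller values after these were seen. Y397D-T3 mouse 4, with 2763 FPKM of Ttr, had 0.720 FPKM of Wfikkn2. In VEH-HC, mouse 1 (1616 FPKM of Ttr) had 0.727 FPKM and mouse 2 (2011 FPKM of Ttr) had 1.03 FPKM. VEH-HC mouse 4, with 890.3 FPKM of Ttr, had 1.79 FPKM.

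None of the 12 transporter, channel and junction genes was called. All 12 were lower at an unadjusted p under 0.05 in Y397D-T3, against 14.6% of tested rows. Kcnj13, an inward rectifier potassium channel of the apical membrane (chromosome 1, 87386363 to 87394729, minus strand), ran from 5.81 to 38.7 FPKM in VEH-HC. The trained ranges were 0.124 to 13.6 FPKM (Y397D-T3), 0.250 to 71.9 FPKM (VEH-T3), 0.0872 to 30.6 FPKM (VEH-T10) and 0.0721 to 65.8 FPKM (Y397F-T10), each overlapping the homecage. Its log2 fold change in Y397D-T3 was -2.86 ± 1.13 (adjusted p = 0.113, exact permutation p = 0.00649). Kcne2, a potassium channel beta subunit, was listed at 0 in 1 library and reached 59.9 FPKM. Aqp1, the apical water channel, had 0.0751 to 0.776 FPKM below the gap and 2.00 to 34.5 FPKM above it. Slc4a5, a sodium bicarbonate cotransporter, had 0 to 0.368 and 1.26 to 20.2 FPKM, and Cldn2, the pore-forming claudin of leaky junctions, 0.104 to 0.622 and 1.84 to 24.1 FPKM. The cation channel gene Trpv4 (0.197 to 0.912 and 1.54 to 16 FPKM), the STEAP family gene Steap1 (0 to 0.698 and 1.34 to 22.7 FPKM), the retinoid flippase gene Abca4 (0.128 to 0.504 and 0.946 to 11 FPKM) and Tmem72 (0 to 0.265 and 0.664 to 15 FPKM) were likewise without overlap. Here too, the share of tested rows without overlap across the gap was not computed. The chloride channel family gene Clic6 (0.309 to 5.41 and 4.90 to 74.8 FPKM), the sulfate transporter gene Slc13a4 (0.602 to 5.00 and 3.97 to 27 FPKM) and the melanosomal transporter gene Oca2 (0.0423 to 0.376 and 0.247 to 5.05 FPKM) overlapped slightly.

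Of the 3 receptor genes none was called. Kl and Folr1 were lower at an unadjusted p under 0.05 in Y397D-T3, against 14.6% of tested rows. Prlr, the prolactin receptor, ran from 0.143 to 0.531 FPKM below the gap and from 0.574 to 19.9 FPKM above it. It followed Ttr in the upper libraries but not in the lower ones, where r was -0.06 (permutation adjusted p = 0.841), rho was -0.111 (permutation adjusted p = 0.722) and r without the 2 farthest libraries was -0.59.

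Of the 6 transcription factor and intracellular genes none was called. In Y397D-T3, 3 were lower at an unadjusted p under 0.05, against 14.6% of tested rows. Otx2 ran from 0.103 to 2.15 FPKM below the gap and from 0.950 to 23.9 FPKM above it. Its log2 fold change in Y397D-T3 was -1.57 ± 0.79 (adjusted p = 0.216, exact permutation p = 0.0238). Msx1, another homeodomain factor, ran from 0.928 to 2.98 and from 2.51 to 18.1 FPKM. The calmodulin-like gene Calml4 ran from 0.699 to 4.79 and from 5.28 to 56 FPKM, Wdr86 from 0.0928 to 1.58 and from 0.804 to 16.5 FPKM, and Cab39l, an adaptor of the LKB1 kinase, from 6.97 to 12.1 and from 11.4 to 52.4 FPKM. Cab39l spanned 7.52-fold over all 30 libraries, the narrowest range of the 32. Mdfic ran from 0.778 to 4.89 and from 2.02 to 9.71 FPKM, and its log2 fold changes from VEH-HC were -0.15, -0.06, -0.25 and -0.90 in VEH-T10, VEH-T3, Y397F-T10 and Y397D-T3.

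The comparison of each CREST form with its vehicle at the same training time gave no call. For Y397F-T10 against VEH-T10, 0 of 32 were called (0% of tested rows in either direction, and 0 of 32 at an unadjusted p under 0.05, against 1.84% lower and 1.94% higher). The median log2 fold change was 0.25, with 2 of the 32 below 0 against 53.9% of tested rows. Ttr differed by 0.43 ± 1.78 with a 95% interval from -3.22 to 4.09, so that even a large difference in either direction was within it. For Y397D-T3 against VEH-T3, 0 of 32 were called (0.00758% of tested rows lower, 0% higher), 1 (Mdfic) was lower at an unadjusted p under 0.05 against 2.72%, 0 were higher against 5.15%, and 32 of 32 log2 fold changes were below 0 against 49.1%. Their median was -1.11, and that of Ttr was -2.68 ± 1.78 (interval -6.33 to 0.98, adjusted p = 0.721). VEH-T10 against VEH-T3 gave 0 of 32 calls (0.0455% of tested rows lower, 0% higher), 0 of 32 at an unadjusted p under 0.05 (4.51% lower, 3.65% higher), and 30 of 32 log2 fold changes below 0 against 49%, with a median of -0.73 and -2.15 ± 1.78 for Ttr (interval -5.81 to 1.5).

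The 10 other tested rows most like the mean of Ttr, Kl and Folr1 after subtracting condition means, over the 30 libraries, were 1500015O10Rik (r = 0.991), Krt18 (0.977), Rdh5 (0.975), Prr32 (0.975), Pla2g5 (0.974), Ace (0.971), Wfdc2 (0.970), Drc7 (0.967), Slc2a12 (0.966) and Ins2 (0.965). The libraries share the split described above, so these values carry no test. Folr1 itself, one of the 3 genes averaged, had r = 0.993, and Gpx3 had the lowest of the 32 at 0.617. 1500015O10Rik, a secreted plexus product, ran from 1.02 to 237 FPKM.

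A list of 25 symbols of other choroid plexus genes had 24 in the table, since 1500015O10Rik and its newer symbol Ecrg4 were both listed. Of these, 21 were tested, and 0 were called in any of the 4 comparisons with VEH-HC, beside the shares of tested rows given above (0.819% to 7.07%). In Y397D-T3, 21 of 21 had a log2 fold change below 0, with a median of -1.01, and 16 were lower at an unadjusted p under 0.05, against 59.6% and 14.6% of tested rows. Htr2c, a serotonin receptor abundant in the plexus and also present in neurons, was at 13.8 ± 5.05 FPKM in VEH-HC and 4.39 ± 2.1 in Y397D-T3 (log2 fold change -1.46 ± 0.55, adjusted p = 0.0966). The median log2 fold change of the 21 was -0.38 in VEH-T3, -0.60 in Y397F-T10 and -0.74 in VEH-T10.

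Marker lists of other tissues were read beside these genes. Of 8 ependymal genes 7 were in the table and 6 tested, with 0 called, and their summed level ran from 42.4 to 71.7 FPKM in VEH-HC and from 23 to 46.9 FPKM in Y397D-T3. Foxj1, the regulator of motile cilia, was at 11.5 ± 2.98 FPKM in VEH-HC and 7.46 ± 1.82 in Y397D-T3 (log2 fold change -0.56 ± 0.37, adjusted p = 0.360), and it rose with Ttr above the gap (r = 0.687, permutation p = 0.00493, adjusted p = 0.00896, rho = 0.625, permutation p = 0.0144, adjusted p = 0.0227, and r = 0.530 without the 2 farthest libraries). It did so below the gap as well (r = 0.582, permutation p = 0.0232, adjusted p = 0.0344, rho = 0.7, permutation p = 0.00472, adjusted p = 0.00899, and r = 0.564 without the 2 farthest). Of 7 tested leptomeningeal genes, 1 was called lower in Y397D-T3, against 3.16% of tested rows. This was Dcn, a fibroblast proteoglycan, at 21 ± 3.63 FPKM in VEH-HC and 9.60 ± 1.59 in Y397D-T3 (log2 fold change -1.06 ± 0.20, adjusted p = 0.00248). For Dcn the relation to Ttr did not pass within either set of 15 libraries (r = 0.223, permutation adjusted p = 0.498, rho = 0.236, permutation adjusted p = 0.441, and r = 0.395 without the 2 farthest libraries above the gap, and r = -0.19, permutation adjusted p = 0.545, rho = -0.321, permutation adjusted p = 0.291, and r = -0.08 without them below it). With condition means subtracted, r was 0.606 above the gap (14 libraries) and -0.09 below it. The leptomeningeal sum ran from 45.2 to 57.9 FPKM in VEH-HC and from 19.7 to 48.5 FPKM in Y397D-T3.

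Genes of the thalamic list, 8 of 8 tested, had 3 called lower in Y397D-T3 (Slc17a6, Tcf7l2 and Calb2), where 3.16% of tested rows were, and 1 in each of the other trained conditions, where 0.501% (VEH-T10, Slc17a6), 2.94% (VEH-T3, Calb2) and 0.66% (Y397F-T10, Slc17a6) were. Hippocampal interneurons also express Calb2, so its calls cannot be assigned to thalamus. Slc17a6, the vesicular glutamate transporter of thalamic neurons, was at 4.39 ± 0.629 FPKM in VEH-HC and 1.66 ± 0.898 in VEH-T10 (log2 fold change -1.08 ± 0.25, adjusted p = 0.0310). Its r with Ttr was -0.41 above the gap (permutation adjusted p = 0.171, rho -0.329, permutation adjusted p = 0.280, r = -0.16 without the 2 farthest libraries) and 0.0606 below it (permutation adjusted p = 0.841, rho 0.0821, permutation adjusted p = 0.791, r = -0.12 without them). VEH-T3 mouse 1 had the highest Slc17a6 of the table at 6.15 FPKM beside Ttr at 23.9 FPKM. The sum of the thalamic list, Calb2 included (18.7 FPKM in VEH-HC mouse 1 and 42 FPKM in mouse 3), ran from 50.8 to 81.6 FPKM in VEH-HC. The trained ranges were 36.6 to 48.3 FPKM (Y397D-T3), 40.1 to 82.8 FPKM (VEH-T3), 40.8 to 55.3 FPKM (VEH-T10) and 37.6 to 54 FPKM (Y397F-T10).

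Markers of the labelled tissue were present in every library. The sum of 6 CA1 pyramidal genes ran from 161 to 240.1 FPKM over the 30 libraries, and 1 of the 6 (Pou3f1) was called higher in Y397D-T3, against 3.91% of tested rows. Wfs1, which marks CA1, was at 52.5 ± 4.18 FPKM in VEH-HC and 52.7 ± 10.2 in Y397D-T3 (log2 fold change -0.01 ± 0.20, adjusted p = 0.981). The sum of 5 dentate granule cell genes ran from 71.9 to 175 FPKM with 0 called, and Prox1 was at 9.96 ± 1.47 and 13.3 ± 2.12 FPKM (0.38 ± 0.19, adjusted p = 0.200). Among 6 endothelial genes, Flt1 was called higher in VEH-T3 (2.23% of tested rows) and Slco1a4 lower in Y397D-T3 (3.16%), and Cldn5 was at 38.3 ± 5.17 and 41.5 ± 4.18 FPKM (0.12 ± 0.12, adjusted p = 0.582). Medial habenula genes (2 of 6 tested) and macrophage genes of ventricle and plexus (2 of 5 tested) gave 0 calls. The untested habenular genes each had a mean under 1 FPKM. In VEH-HC mouse 1, for instance, Gng8 was at 0.664, Chrna3 at 0.186, Chrnb4 at 0.176 and Pou4f1 at 0.0905 FPKM. Whether the first gene of that list, Tac2, stands for habenula here was not tested. Tac2, a tachykinin gene, was at 5.71 ± 1.02 and 3.74 ± 1.06 FPKM (-0.52 ± 0.21, adjusted p = 0.126). Below the gap it was lower where Ttr was higher (r = -0.62, permutation p = 0.0145, adjusted p = 0.0237, rho = -0.679, permutation p = 0.00661, adjusted p = 0.0115), with r = -0.39 without the 2 farthest libraries and -0.87 with condition means subtracted. Above the gap r was -0.21 (permutation adjusted p = 0.516), rho was -0.168 (permutation adjusted p = 0.583) and r without the 2 farthest libraries was 0.138. Mrc1, a macrophage receptor gene with a mean under 1 FPKM, was at 0.930 ± 0.244 and 0.820 ± 0.154 FPKM. The part of dissection in any of these differences was not tested.

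Because plexus RNA differed between libraries, the number of rows called over the whole table was also computed with the mean log2(FPKM + 1) of Ttr, Kl and Folr1 as a covariate. For Y397D-T3 against VEH-HC the count went from 932 to 481, with 396 called in the same direction in both fits, which is 42.5% of the first set and 82.3% of the second. For VEH-T10 it went from 108 to 67, with 44 shared (40.7% and 65.7%). It rose from 681 to 973 for VEH-T3, with 655 shared (96.2% and 67.3%), and from 149 to 254 for Y397F-T10, with 128 shared (85.9% and 50.4%). With the covariate, the adjusted p of Slc17a6 was 0.0460 in VEH-T10, 0.0269 in Y397F-T10 and 0.0291 in Y397D-T3, where it was called without it too, and 0.0485 in VEH-T3, where it was not (0.0690). Calb2 remained called in VEH-T3 (0.0260) and Y397D-T3 (0.0324), and Dcn in Y397D-T3 (0.0171), whereas Tcf7l2 in Y397D-T3 was not (0.0924 against 0.0211 without the covariate). The covariate is itself lower in every trained condition than in VEH-HC, so it and training cannot be fully told apart in this fit.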

How the data were processed

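RNA of the dissected dorsal hippocampus of 30 mice was sequenced as paired-end 150 bp reads on NovaSeq and HiSeq instruments, and which library ran on which was not given. The authors aligned reads to mm10 with TopHat2 2.1.1 and deposited FPKM values from Cufflinks 2.2.1 (submitters' processing notes). FPKM is normalised to length and library total, so a row that takes a larger share lowers the others slightly, and absolute depth is unknown.

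Rows with a mean of at least 1 FPKM were tested on log2(FPKM + 1) with limma 3.58.1 (R 4.3.3, trended empirical Bayes, all 30 libraries in one fit, Benjamini-Hochberg adjustment over all 13184 rows). This pseudocount understates changes of low rows. The study's own test, a regularised ANOVA over all conditions, was not used here. Relations across libraries used Python 3.11.15 and numpy 2.4.6. The limma fit and the relative depth estimate were tried on simulated data. For limma the simulated noise was independent between rows with the same SD in every condition, unlike the choroid plexus genes here.

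The 32 genes and all marker lists were chosen with earlier results of these data known. Named genes were Ttr, Kl, Folr1 and every called member with full values, the 10 most similar other rows, and the first gene of each marker list. Slc13a4 and the other members are given by range. Enpp2, Kcnj13 and Wfikkn2 were chosen for fuller values after these were seen. Deviations from condition means correlated over 0.1 in 24 of 60 pairs of same-numbered mice (median 0.0416, range -0.496 to 0.840). Differently numbered mice had a median of 0.00649, and their share over 0.1 was not computed. The check therefore cannot decide whether the numbers pair mice, and the main fit did not use them. Gene coordinates are from GENCODE for GRCm38.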

Additional observations from a re-analysis of the deposited data

Results flagged for a closer look

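In Y397D-T3, mouse 4 lay apart from the other 5 mice at the upper end for 14 of the 32 choroid plexus genes on log2(FPKM + 1), with a gap to the next mouse of 0.649 to 0.879 of the range of the condition, above the Dixon limit of 0.625 for 6 samples. These were Kl, Folr1, Aqp1, Slc4a5, Prlr, F5, Col8a1, Col8a2, Tmem72, Trpv4, Cldn2, Steap1, Abca4 and Oca2. In VEH-T3, mouse 4 lay apart at the upper end for 1 gene, Oca2, at 0.704 of the range. Chance alone sets apart about 1 in 20 of such groups, 160 were examined, and the 32 genes are not independent of each other.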

How the results depend on the processing

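Ttr, Kl, Folr1 and the number of the 32 genes called were recomputed in each of the 7 comparisons with a pseudocount of 0.1, a filter of more than 0 FPKM in 6 or more libraries, median centring, robust empirical Bayes, rows of a symbol summed and the replicate block, and no direction or call changed. With the replicate block, for instance, the adjusted p of Ttr in Y397D-T3 against VEH-HC was 0.0957 at a log2 fold change of -4.49, and 1 gene was called. With only the 12 libraries compared, 30 genes were called for Y397D-T3 against VEH-HC, and Ttr (-4.49, adjusted p = 0.0187), Kl (-1.67, 0.0279) and Folr1 (-2.91, 0.00783) passed. By the exact permutation test, unadjusted, Ttr (-4.49, p = 0.00866), Kl (-1.67, p = 0.0173) and Folr1 (-2.91, p = 0.00649) passed in Y397D-T3, and Ttr (-3.97, p = 0.0433) and Folr1 (-2.30, p = 0.0411) in VEH-T10. Leaving out 1 library at a time gave 0 to 1 genes called for Y397D-T3 against VEH-HC (0 without VEH-HC mouse 5) and 0 to 1 for VEH-T3 against VEH-HC (1, Gpx3, without Y397F-T10 mouse 4). For Y397F-T10 against VEH-T10 it turned the sign: Ttr ran from -0.67 to 1.38, Kl from -0.15 to 0.84 and Folr1 from -0.52 to 0.85. Ttr was -0.48 without VEH-T10 mouse 2, -0.09 without VEH-T10 mouse 6, -0.67 without Y397F-T10 mouse 2 and -0.52 without Y397F-T10 mouse 4, Kl was -0.15 and -0.05 without these last 2, and Folr1 was -0.16, -0.01, -0.52 and -0.40. The cause of these changes was not tested. Counting precision cannot be given because absolute depth is unknown.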
